A study of Mus musculus with 4 samples.

Results

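Regulators of G protein signalling (Rgs proteins) were followed in group 1 innate lymphoid cells (ILC1s) of the mouse liver. The 8 genes described here are Rgs1, Rgs2, Rgs3, Rgs10, Rgs14, Rgs16, Rgs18 and Rgs19, taken by symbol from the 18804 genes of the deposited expression table. All 8 were found, and 7 of them passed the filter on low values (a 4-library mean of 1 FPKM or more), as did 9476 genes in all.

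RNA was sequenced from liver ILC1s of Cd200r knockout mice (KO replicates 1 and 2) and WT mice (WT replicates 1 and 3), with 2 libraries per genotype. All were adult mice of 5 to 8 weeks at homeostasis, with no treatment in either genotype. Cd200r encodes an inhibitory receptor of the immunoglobulin superfamily, carried by myeloid and lymphoid cells and engaged by CD200. The labels do not say how the knockout was made, whether a library holds 1 mouse or a pool, or which sort gate was used, so the p-values below measure the spread between libraries, which may be technical.

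Values are FPKM (fragments scaled to gene length and to the counted reads of the library). Levels of different genes are set side by side on the lengths used by the authors, which the labels do not state. Depth, inferred from the values, was 41164777 and 39493877 counted reads in the KO libraries and 39349312 and 38972600 in the WT libraries. Cd200r1, the targeted gene, had 110.7 and 103.7 FPKM in KO, against 161.5 and 173.3 FPKM in WT, a log2 fold change of -0.64 ± 0.09 (SE, limma adjusted p = 0.00451), so its transcript was lower but present in KO. All 12 genes of the ILC1 marker list were measured, led by Xcl1, Ncr1 and Cxcr6, and Cd200r1 was the only one of them past the test. Markers of other cells differed between the genotypes. Of the conventional NK cell list 11 of 13 tested genes rose in KO, with summed levels of 449.0 and 948.4 FPKM in KO against 213.7 and 194.2 FPKM in WT. Of the macrophage and Kupffer cell list 8 of 11 tested genes rose in KO. Of the erythroid list 7 of 8 tested genes fell in KO. No tested gene of the T cell (9) or B cell (6) lists passed, 2 of 10 hepatocyte and 2 of 4 neutrophil genes rose, and 1 of 4 dendritic cell genes, Itgax, fell.

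Heterotrimeric G proteins carry the signal of G protein-coupled receptors, among them the chemokine and lysophospholipid receptors that place lymphocytes in tissue. A receptor loads the G alpha subunit with GTP, and Rgs proteins bind active G alpha through their shared RGS domain and speed the hydrolysis of GTP, which ends the signal. In lymphocytes they are known for limiting chemotaxis and for being set quickly by activation. Rgs1, Rgs2, Rgs16 and Rgs18 are small proteins with little beyond the RGS domain, whereas Rgs3 and Rgs14 have long forms with further domains.

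The Rgs genes covered a very wide range of levels in liver ILC1s, and Rgs1 stood far above the others. Averaged over the 4 libraries, Rgs1 was the 32nd most abundant of the 18804 genes, and its rank lay between 22 and 40 in single libraries. The order of mean FPKM was Rgs1, Rgs2, Rgs19, Rgs14, Rgs18, Rgs3, Rgs10 and Rgs16. Mean FPKM was 9.72 times higher for Rgs1 than for Rgs2, 2.60 times higher for Rgs2 than for Rgs19, and 26.8 times higher for Rgs10 than for Rgs16. Only the ranges of Rgs14 and Rgs18 overlapped among neighbours in this order, so those genes were not separated by their spread over libraries. The order also rests on the lengths behind the FPKM values. The smallest length that gave whole reads was 1350 bases for Rgs1 and 11820 bases for Rgs3. GENCODE exons of Rgs1 together cover 6947 bases. In reads Rgs3 (8941 and 7191 in KO, 10016 and 7677 in WT) stood above Rgs14 (3879 and 3979 in KO, 4491 and 3861 in WT). Except in KO replicate 2, Rgs3 also stood above Rgs19 (7213 and 8812 reads in KO, 6550 and 7636 in WT). Rgs1 made up 86.6% and 83.1% of the summed FPKM of the 8 genes in KO, against 80.9% and 81.4% in WT. The sum itself was 2867 and 2105 FPKM in KO and 1751 and 1856 FPKM in WT. Without Rgs1 it was 384.6 and 356.3 FPKM in KO and 333.9 and 344.5 FPKM in WT, so that KO stayed above WT by a smaller margin.

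**Figure D1:**
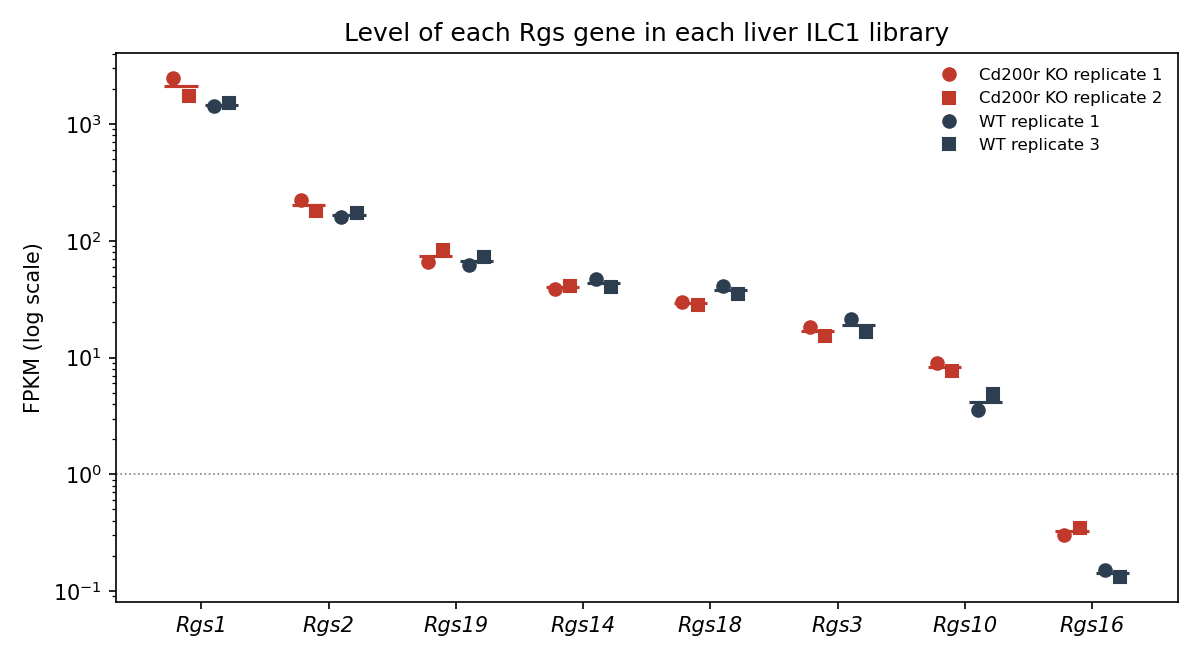
FPKM on a log axis of the 8 Rgs genes in the 4 libraries, ordered by mean level, with points for libraries, short lines for group means (n = 2 each) and a dotted line at the filter of 1 FPKM. Rgs1 lies above 1417 FPKM in all 4 libraries and Rgs16 below 1 FPKM in all of them, and the KO points lie above the WT points for Rgs1, Rgs2, Rgs10 and Rgs16 and below them for Rgs18.

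Rgs1, Rgs2 and Rgs18 sit in 1 stretch of chromosome 1, with KO above WT for Rgs1 and Rgs2 and below it for Rgs18. In mm10 coordinates (RefSeq GRCm38.p6) Rgs2 lies at chr1:143999338-144004149, Rgs1 at chr1:144244669-144249104 and Rgs18 at chr1:144752683-144775427. With Rgs13 and Rgs21 they form a run of 5 consecutive protein-coding genes over 776.09 kb, between Uchl5 and Brinp3. Rgs13 and Rgs21 were sought among the further family genes below and had no values in the deposited expression table. The mean FPKM of the 3 neighbours ran from 1790 for Rgs1 to 33.6 for Rgs18. Rgs16, also on chromosome 1, lies outside this run at chr1:153740353-153745468. The others lie at chr4:62559835-62703019 (Rgs3), chr7:128373621-128419506 (Rgs10), chr13:55369732-55384687 (Rgs14) and chr2:181688419-181694537 (Rgs19).

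Promoter sequence was available for 5 of the 8 genes (RefSeq, GRCm38.p6), and the 250 bases before the start are printed for the 3 of them whose KO values all lay above WT. They read 5′ to 3′ on the strand of the gene, with capitals for GGGCGG or its reverse complement CCGCCC, the core of the GC box. The start is that of the transcript in the RefSeq table, which for Rgs10 lies inside the annotated span of the gene. The regions are chr1:144004150-144004399 on the minus strand for Rgs2, chr7:128418173-128418422 on the minus strand for Rgs10 and chr1:153740103-153740352 on the plus strand for Rgs16.
Rgs2: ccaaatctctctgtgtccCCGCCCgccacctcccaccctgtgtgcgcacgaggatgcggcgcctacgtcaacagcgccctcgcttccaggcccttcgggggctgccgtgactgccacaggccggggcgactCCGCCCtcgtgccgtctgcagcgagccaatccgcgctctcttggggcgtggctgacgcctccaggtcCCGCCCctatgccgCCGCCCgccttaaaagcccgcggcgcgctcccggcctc
Rgs10: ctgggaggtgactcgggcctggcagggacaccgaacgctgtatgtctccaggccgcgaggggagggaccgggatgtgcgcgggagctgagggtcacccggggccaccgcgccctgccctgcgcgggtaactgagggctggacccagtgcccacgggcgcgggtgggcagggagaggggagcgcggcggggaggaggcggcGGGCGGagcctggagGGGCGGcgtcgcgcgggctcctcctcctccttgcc
Rgs16: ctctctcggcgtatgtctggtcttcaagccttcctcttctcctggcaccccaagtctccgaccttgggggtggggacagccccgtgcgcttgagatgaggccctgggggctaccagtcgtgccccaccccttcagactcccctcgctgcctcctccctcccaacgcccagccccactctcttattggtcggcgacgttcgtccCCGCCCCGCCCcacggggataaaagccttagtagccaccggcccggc

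GC content was 72.4% before Rgs2, 76.4% before Rgs10 and 66.4% before Rgs16, against a median of 52.4% over 32851 such windows of all genes. GGGCGG, searched on both strands, stood 4 times in the Rgs2 window and 2 times each in the Rgs10 and Rgs16 windows, where the 2 matches of Rgs16 overlap each other. It was found in 32.7% of all windows. Rgs3 and Rgs19, whose genotypes overlapped, have several windows, which are not printed. GC content was 48.4% and 56.8% in those of Rgs3 and 64.8%, 74.8% and 54.4% in those of Rgs19. GGGCGG stood in windows of both these genes too, so it was not particular to the 3 printed windows. The cyclic AMP response element TGACGTCA, the AP-1 element TGAGTCA (reverse complement TGACTCA) and the E-box CACGTG were in none of these 3 windows, and stood in 1.55%, 4.46% and 6.02% of all windows. TATAAA was in none of the 3 either, and stood in 12.4% of all windows. These are matches of letters in short windows and say nothing on binding.

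None of the 7 tested Rgs genes passed the gene test between KO and WT (limma, adjusted p under 0.05 over all tested genes), where 3.33% of all tested genes (316 of 9476) did. At an unadjusted p under 0.05 the count was 4 of 7 Rgs genes and 1468 of 9476 genes. The 2 genotypes did not overlap for 4 of the 7, which were Rgs1, Rgs2 and Rgs10 with KO above WT and Rgs18 with KO below WT. The same held for 46.0% of all tested genes. The median log2 fold change of the 7 genes was 0.13, against 0.00 over all tested genes, with 4 positive and 3 negative values.

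**Figure D2:**
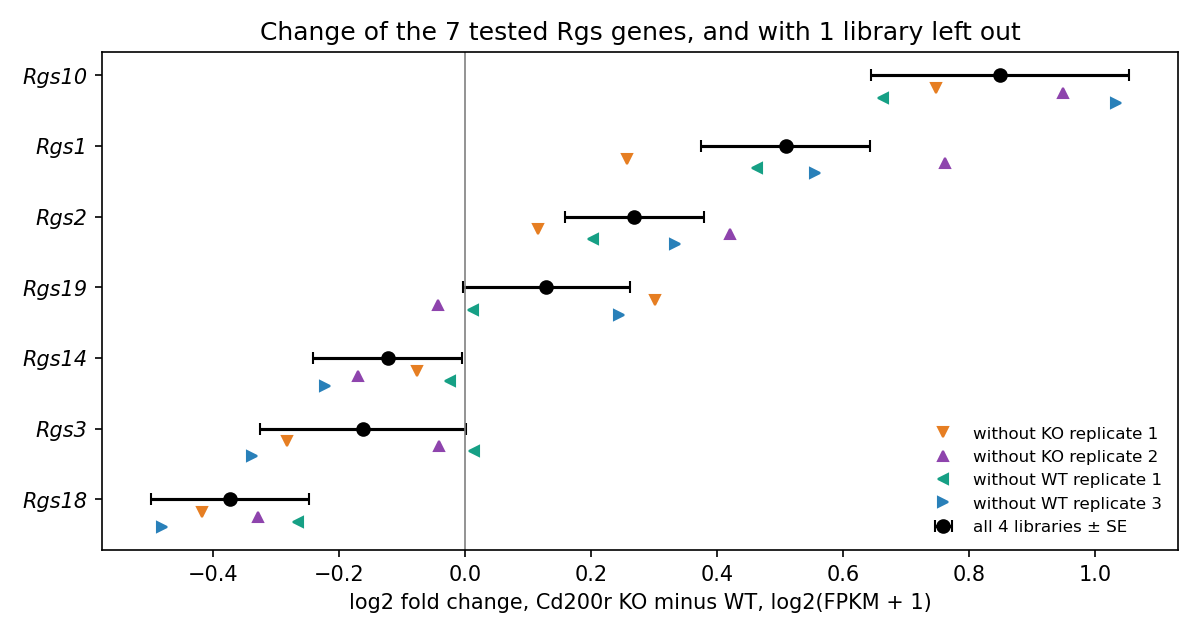
Log2 fold change (KO minus WT, log2(FPKM + 1) scale) of the 7 tested Rgs genes from limma, with black points and SE bars for all 4 libraries and coloured triangles for fits without 1 library. Rgs10 at 0.85 and Rgs1 at 0.51 lie farthest to the right and Rgs18 at -0.37 farthest to the left, and Rgs3 and Rgs19 each cross 0 when 1 library is left out.

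Rgs1, a GTPase activator for Gi and Gq subunits that limits chemokine responses of B and T cells, had 2482 and 1749 FPKM in KO, against 1417 and 1512 FPKM in WT. Both KO libraries lay above both WT libraries, and KO replicate 1 lay far above KO replicate 2. The mean was 2115 ± 518 FPKM in KO and 1465 ± 66.7 FPKM in WT (SD, n = 2 each), a ratio of 1.44. Its log2 fold change was 0.51 ± 0.13 (SE, limma adjusted p = 0.0758), so the difference did not pass. The 2 KO libraries differed from each other by 0.50 on the log2 scale, which was about as large as the difference between the genotypes, and the WT libraries by 0.09. The value was 0.76 without KO replicate 2 (adjusted p = 9.52e-05) and 0.26 without KO replicate 1 (adjusted p = 0.0907), so the size depended on KO replicate 1. In every fit that leaves out 1 library, here and below, 1 genotype has a single library, which is assumed to vary like the other genotype's pair. Such p-values rest on that pair and on the spread shared over genes. With the filter raised to a mean of 5 FPKM the adjusted p of Rgs1 was 0.0499. Over all 14 alternatives it lay between 9.52e-05 and 0.513, and 2 passed. It was tested on 137932 and 93245 reads in KO and 75297 and 79542 reads in WT, so counting error was small. In these bulk libraries fewer cells of a type and less RNA per cell cannot be told apart, for Rgs1 and for each gene below.

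Rgs2, which prefers Gq among the G alpha subunits, had 223.1 and 180.4 FPKM in KO, against 159.0 and 174.1 FPKM in WT. The groups did not overlap, but KO replicate 2 lay just above WT replicate 3. The mean was 202 ± 30.2 FPKM in KO and 167 ± 10.7 FPKM in WT (SD, n = 2 each). The log2 fold change of Rgs2 was 0.27 ± 0.11 (SE, limma adjusted p = 0.275) and became 0.42 (adjusted p = 0.0452) without KO replicate 2, which leaves 1 KO library, and 0.12 (adjusted p = 0.586) without KO replicate 1. No other of the 14 alternatives passed, and their adjusted p reached 0.845. Rgs1 and Rgs2 ranked the libraries in the same order, with KO replicate 1 highest, then KO replicate 2, WT replicate 3 and WT replicate 1. Rgs10, described below, had this order too.

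Rgs18, a regulator of Gi and Gq known from platelets and other blood cells, was the only one of the 8 genes with both KO libraries below both WT libraries. It had 30.05 and 28.2 FPKM in KO, against 41.0 and 35.2 FPKM in WT. The groups did not overlap, and the KO libraries were close to each other. The mean was 29.1 ± 1.32 FPKM in KO and 38.1 ± 4.11 FPKM in WT (SD, n = 2 each), 1.31-fold lower in KO, with a log2 fold change of -0.37 ± 0.12 (SE, limma adjusted p = 0.166). It kept this sign in all 14 alternatives, between -0.48 and -0.27, and passed in none. Platelet and megakaryocyte markers summed to 1.60 and 5.02 FPKM in KO and 3.28 and 0.958 FPKM in WT over 9 measured genes, with Gp9 at 0 in every library. Those sums overlapped between the genotypes. Of the 9 genes 2 did not overlap, Tubb1 and Gp5, named after their values were seen. Both were at 0 in both KO libraries, with 0.203 and 0.0896 FPKM (Tubb1) and 0.0578 and 0.0233 FPKM (Gp5) in WT. The part of these markers in the difference of Rgs18 was not tested.

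Rgs16, an inducible regulator of Gi and Gq in activated lymphocytes, was near the lower end of the data. It had 0.302 and 0.347 FPKM in KO, against 0.153 and 0.132 FPKM in WT, and was left out of the main test by the filter. These values stood for 29 and 32 reads in KO and 14 and 12 reads in WT. The exact Poisson 95% intervals were 19.4 to 41.6 and 21.9 to 45.2 reads in KO, and 7.65 to 23.5 and 6.20 to 21.0 reads in WT, and cover counting error only. The KO mean was 2.28 times the WT mean, the interval of KO replicate 1 overlapped both WT intervals, and that of KO replicate 2 overlapped only the interval of WT replicate 1. On recovered reads the log2 fold change of Rgs16 was 1.16 ± 1.12 (SE, limma-voom adjusted p = 0.715). Its exons overlap those of Gm28513 on the opposite strand by 236 bases, and the library kit as labelled is not stated to mark strand, so reads there may come from either gene. No exons of the other 7 Rgs genes overlap those of another gene in the GENCODE annotation.

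Rgs3, Rgs14, Rgs18 and Rgs19 lay in the middle of the range. Rgs19, also known as GAIP, acts on Gi subunits and binds the adaptor Gipc1. It had 65.2 and 83.0 FPKM in KO, against 61.9 and 72.9 FPKM in WT, with overlapping groups and a log2 fold change of 0.13 ± 0.13 (SE, limma adjusted p = 0.709). Without KO replicate 2 the value of Rgs19 became -0.04. Gipc1 had 22.4 ± 0.454 FPKM in KO and 20.5 ± 0.499 FPKM in WT (SD, n = 2 each) and did not pass either.

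Rgs14, which carries besides its RGS domain a motif that holds Gi subunits in the GDP-bound form, had 38.6 and 41.2 FPKM in KO, against 46.7 and 40.6 FPKM in WT. The genotypes overlapped, and the log2 fold change was -0.12 ± 0.12 (SE, limma adjusted p = 0.685). Rgs3, a regulator of Gi and Gq with several isoforms, had 18.4 and 15.4 FPKM in KO, against 21.5 and 16.7 FPKM in WT. These groups overlapped too, with a log2 fold change of -0.16 ± 0.16 (SE, limma adjusted p = 0.701), and without WT replicate 1 the value was 0.01.

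Rgs10, a small regulator of Gi subunits known from macrophages and microglia, whose GC-rich promoter is printed above, had the largest fold change of the 7 tested genes. It had 8.96 and 7.66 FPKM in KO, against 3.54 and 4.86 FPKM in WT. Both KO libraries lay well above both WT libraries, and each genotype's libraries differed from each other by less than the gap between them. The mean was 8.31 ± 0.919 FPKM in KO and 4.20 ± 0.937 FPKM in WT (SD, n = 2 each), a 1.98-fold ratio from 506 and 415 reads in KO and 191 and 260 reads in WT. The log2 fold change of 0.85 ± 0.20 (SE, limma adjusted p = 0.0532) missed the threshold narrowly. With the filter raised to a mean of 5 FPKM, which tests 6277 genes, its adjusted p was 0.0448. Without WT replicate 3, which leaves 1 WT library, the value was 1.03 (adjusted p = 0.0378), and without WT replicate 1 it was 0.66 (adjusted p = 0.336). The value of Rgs10 stayed positive in all 14 alternatives but passed in only these 2, with adjusted p up to 0.359. In limma-voom on recovered reads it was 0.999 (adjusted p = 0.222).

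Because Rgs10 is known from macrophages, macrophage markers are set beside it. The macrophage and Kupffer cell list summed to 653.8 and 968.7 FPKM in KO, against 247.4 and 226.6 FPKM in WT, and none of its 14 measured genes was at 0 in every library. Its most abundant gene was Lyz2, with 649 ± 173 FPKM in KO and 203 ± 14.4 FPKM in WT (SD, n = 2 each). Rgs10 was higher in KO replicate 1 than in KO replicate 2 and higher in WT replicate 3 than in WT replicate 1, whereas the macrophage sum had the opposite order within both genotypes. The part of these markers in the difference of Rgs10 was not tested.

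Genes with the profile most like that of Rgs10 and Rgs1, which had the largest fold changes, were sought among 6093 tested genes with a mean of 5 FPKM or more, leaving out the 8 genes themselves and symbols made of Gm and a number or ending in Rik. Likeness was the Euclidean distance between log2(FPKM + 1) values over the 4 libraries, each gene centred on its mean. For Rgs10 these were Dusp1, a phosphatase of MAP kinases (distance 0.143), Ube2c, a ubiquitin-conjugating enzyme of mitosis (0.202), and Srm, spermidine synthase (0.206). Dusp1 had 1566 and 1524 FPKM in KO, against 811 and 1000.1 FPKM in WT. For Rgs1 they were Reep4 (0.130), Gabarapl1 (0.152) and Sec22a (0.153). These distances rest on 4 libraries and describe the profiles alone.

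The immediate-early and dissociation list holds genes that tissue handling and activation switch on quickly, as is known for Rgs1 and Rgs2. It summed to 6522 and 5947 FPKM in KO, against 4993 and 5341 FPKM in WT. This order of the 4 libraries was also that of Rgs1, Rgs2 and Rgs10. It is the order of the sum and not of every gene in the list. Dusp1, the nearest profile to Rgs10, is in the list. Of the 22 tested genes of the list 6 rose and 3 fell in KO, with a median log2 fold change of 0.09. Atf3, a stress-induced transcription factor, rose with a log2 fold change of 2.68 ± 0.23, and Nr4a1, an orphan nuclear receptor induced by antigen receptor signals, with 1.79 ± 0.19 (SE, limma adjusted p = 0.000210 and 0.000858). The heat-shock gene Hspa1a fell by 0.87 and the AP-1 gene Jun by 0.68 on the log2 scale. The list thus held changes in both directions, and its part in the values of Rgs1, Rgs2 and Rgs10 was not tested.

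**Figure D3:**
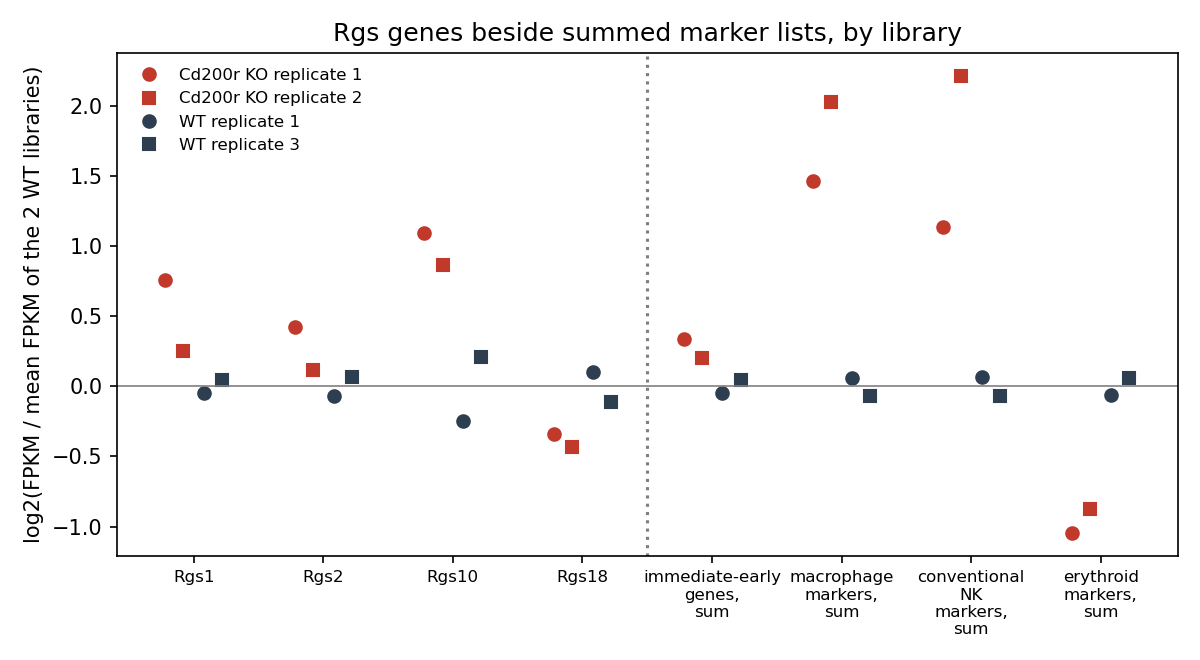
Log2 ratio of each library's FPKM to the mean of the 2 WT libraries, for 4 Rgs genes and 4 summed marker lists. Rgs1, Rgs2, Rgs10 and the immediate-early sum are highest in KO replicate 1. The macrophage and conventional NK sums are highest in KO replicate 2.

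Of 16 further RGS family genes listed 7 were measured. These 7 were scarce, and only Rgs11 passed the filter. The rest had no values, so their level is not known. Rgs11, best known from retina and brain, had 2.04 and 2.36 FPKM in KO, against 2.55 and 3.74 FPKM in WT, with a log2 fold change of -0.36 ± 0.23 (SE, limma adjusted p = 0.504). Rgs9, under the filter and named after its values were seen, was uneven within the KO group, with 0.448 and 0.0730 FPKM in KO and 0.0615 and 0.0296 FPKM in WT, from 160 and 25 reads in KO and 21 and 10 reads in WT.

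No tested gene for a G protein subunit passed the test. Of 7 tested G alpha subunits none passed, with a median log2 fold change of 0.04. Gnai2, the Gi subunit of chemokine receptors, had 312 ± 29.02 FPKM in KO and 303 ± 10.7 FPKM in WT (SD, n = 2 each), above Gnas, the Gs subunit, with 81.8 ± 6.54 FPKM in KO and 66.1 ± 1.68 FPKM in WT. Of 8 tested G beta and gamma subunits none passed (median -0.09). Gng5 had 218 ± 21.2 FPKM in KO and 198 ± 15.7 FPKM in WT, and Gnb1 had 90.6 ± 7.22 FPKM in KO and 98.0 ± 13.5 FPKM in WT (SD, n = 2 each). None passed among 13 other regulators of G proteins (median 0.03), led by Arhgef1, a guanine nucleotide exchange factor with an RGS-like domain, and Ric8a, a chaperone of G alpha subunits. In KO they had 74.2 ± 2.76 and 42.0 ± 2.09 FPKM, against 74.5 ± 6.18 and 48.6 ± 1.30 FPKM in WT.

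The effectors below G proteins also held no gene past the test, though 14 of 15 tested genes had a negative log2 fold change (median -0.34, against 0.00 over all tested genes). The exception was Rap1b, a small GTPase of adhesion and the most abundant of the list, with 679 ± 108 FPKM in KO and 508 ± 20.9 FPKM in WT (SD, n = 2 each) and a log2 fold change of 0.41 ± 0.11 (SE, limma adjusted p = 0.0710). Prkar1a, a regulatory subunit of protein kinase A, was almost level at 316 ± 13.2 FPKM in KO and 318 ± 0.686 FPKM in WT.

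Among these lists of the pathway the receptors held all genes past the test. Of 26 tested chemoattractant and lipid receptors 5 rose and 2 fell in KO (median log2 fold change 0.08). Lpar6, a lysophosphatidic acid receptor, fell to 154 ± 1.40 FPKM in KO, against 236 ± 2.94 FPKM in WT (SD, n = 2 each; log2 fold change -0.61, limma adjusted p = 0.00341). Gpr183, the receptor of oxysterols, rose to 13.8 ± 1.34 FPKM in KO, against 6.01 ± 0.294 FPKM in WT (log2 fold change 1.08, limma adjusted p = 0.00665). Cx3cr1 had 3.01 and 6.79 FPKM in KO, against 0.846 and 0.233 FPKM in WT (1.89, limma adjusted p = 0.0105), and S1pr5, which lets NK cells leave bone marrow and lymph nodes, 11.2 and 34.1 FPKM in KO, against 3.32 and 4.29 FPKM in WT (2.11, limma adjusted p = 0.0123). Cx3cr1 and S1pr5 are also in the conventional NK cell list above and, like its sum, were highest in KO replicate 2. Without that library the log2 fold change of S1pr5 was 1.35 (adjusted p = 0.00539) and that of Cx3cr1 1.41 (adjusted p = 0.0375). In limma-voom on recovered reads neither passed, with adjusted p = 0.0684 for Cx3cr1 and 0.1004 for S1pr5. C5ar1 had 1.56 and 2.64 FPKM in KO, against 0.227 and 0.319 FPKM in WT. Fpr1 had 1.93 and 2.60 FPKM in KO, against 0.519 and 0.175 FPKM in WT. Both were highest in KO replicate 2, as were the macrophage sum and the neutrophil sum (27.4 and 47.9 FPKM in KO, 18.9 and 8.73 FPKM in WT). The part of those markers was not tested. C5ar1 and Fpr1 passed as higher in KO as well, named here after their values were seen. Without KO replicate 2 these calls were lost for C5ar1 (adjusted p = 0.149) and Fpr1 (0.101), and that of Fpr1 also without WT replicate 3 (0.0573). In limma-voom both were lost too (0.134 for C5ar1 and 0.242 for Fpr1). Cxcr6 and Cxcr3, the most abundant receptors of the list, did not pass, at 983 ± 49.5 and 627 ± 44.5 FPKM in KO and 1036 ± 44.1 and 670.2 ± 34.5 FPKM in WT.

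**Figure D4:**
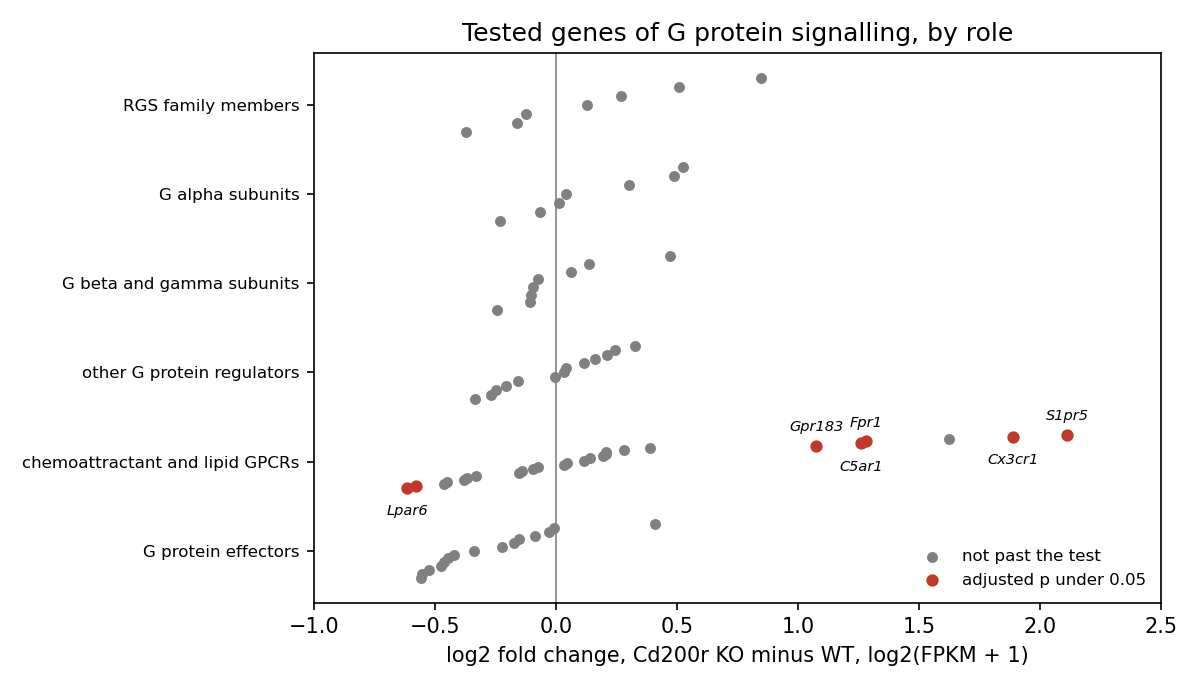
Log2 fold change (KO minus WT, log2(FPKM + 1) scale) of every tested gene of 6 lists, 1 point per gene, in red where the limma adjusted p was under 0.05. Red points appear in the receptor list alone among these 6, with 5 to the right of 0 and 2 to the left, and 14 of the 15 effectors lie left of 0.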

How the data were processed

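Full-length amplified cDNA from total RNA of liver ILC1s was sequenced, per the labels' protocols. The authors deposited 1 table of FPKM values for 4 libraries. fastp, HISAT2, HTSeq, DESeq2 and R 3.2.0 with build mm10 are named in the submitters' processing notes, with no role or parameters, and strand handling was not stated in the labels. No counts were given, so the count test was not the main test. limma 3.58.1 (R 4.3.3) was fitted with a mean-variance trend to log2(FPKM + 1) of genes averaging 1 FPKM or more, KO against WT, with Benjamini-Hochberg adjustment over 9476 genes. Fold changes on this scale understate the change of low genes. The fits were tested on simulated data.

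The smallest steps of the FPKM values gave each library's depth and each gene's read number: 99.8% of 18155 genes above 0 came out as whole reads in all libraries (tolerance 0.0001 reads), and 1 FPKM equals 41.2 and 39.5 reads per kilobase in KO and 39.3 and 39.0 in WT. limma-voom on these reads, chosen after seeing the data, called 145 of 13227 genes with a mean of at least 10 reads, and no Rgs gene. The members and lists were chosen with earlier results of these data known. Genes named are the 8 members, other RGS family genes averaging 1 FPKM or more, and the 3 nearest profiles to 2 members. In each pathway list up to 4 genes past the test are named by smallest p (the 2 most abundant where none passed). Rgs9, C5ar1, Fpr1, Cxcr3, Gipc1, Itgax, Tubb1, Gp5 and the targeted gene are named outside this rule. Exon overlaps used GENCODE, and 5 of 8 members matched the promoter table. Alternatives changed the pseudocount, the filter, the trend, the scaling and the libraries. One receptor gene past the test is counted but not reported here.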

Additional observations from a re-analysis of the deposited data

How the results depend on the processing

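Each of 14 alternatives was compared with the 7 tested Rgs genes, and 5 of these genes kept their sign in all of them. With the filter at a mean of 5 FPKM, where fewer genes were tested, Rgs1 (log2 fold change 0.51, adjusted p = 0.0499) and Rgs10 (0.85, adjusted p = 0.0448) passed, so 2 Rgs genes were called higher. Leaving out 1 library at a time gave 0 to 2 Rgs genes called higher: Rgs1 and Rgs2 passed without KO replicate 2 and Rgs10 without WT replicate 3. These fits hold 1 library in 1 genotype, assumed to vary like the pair of the other. The log2 fold change then ranged from 0.26 to 0.76 for Rgs1, from 0.12 to 0.42 for Rgs2 and from 0.66 to 1.03 for Rgs10. It ranged from -0.34 to 0.01 for Rgs3, which turned positive without WT replicate 1 (0.013), and from -0.04 to 0.30 for Rgs19, which turned negative without KO replicate 2 (-0.043). The cause was not tested. No Rgs gene was called lower in any alternative. Among the pathway and immediate-early lists 11 genes were called higher and 5 lower. Without a filter these counts were 0 and 0, and of 18155 genes tested 0 were called by limma (1898 at an unadjusted p under 0.05). Without the trend they were 3 and 0, and with limma-voom on recovered reads 5 genes were called higher and 4 lower. Leaving out 1 library gave 10 to 11 higher and 3 to 9 lower. All genes called numbered 316, against 70 without the trend, 145 with limma-voom and 574 without KO replicate 1. No paired analysis was run, because the labels name no pairs of KO and WT libraries. Each tested Rgs gene rested on 191 to 137932 reads per library and Rgs16 on 12 to 32, so depth limits Rgs16 most, and 2 libraries per genotype limit all of them.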
